A study of Mus musculus with 12 samples.

Results

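The circadian clock genes described here are Per1, Per2, Per3, Cry1, Cry2, Clock, Dbp, Nr1d1, Nr1d2 and Tef, chosen as the probe sets that carry these symbols in the array annotation. All 10 genes were on the array, among 12393 genes named there, with 18 of its 22626 tested probe sets. Where a gene had several probe sets, its value is that of the probe set with the highest mean over all arrays. The other probe sets are described beside it, but the comparisons between groups give only some of them. The 12 arrays measured RNA of the scraped epithelial layer of the colon of male C57BL/6 mice 6 to 8 weeks old, with RNA of 3 mice pooled for each array. The 4 groups of 3 arrays were POR-null mice on quercetin, POR-null mice on control diet, wild type mice on quercetin and wild type mice on control diet. POR is the reductase that hands electrons to microsomal cytochromes P450, and the null line lacks it. The labels do not name the promoter or the cell type in which it was deleted, and the gene itself is not analysed here. Every mouse had 14 days on a soya-free powder diet and was killed 24 hours after the experimental diet began. The quercetin diet held 6200 ppm of this plant flavonol, about 7 mg for each mouse. The mice lived in light and dark periods of equal length. The hour of the day at which tissue was taken is not in the labels, nor is any batch or day of collection. A pool of 3 mice averages over its animals, and fewer cells of a type and less RNA per cell cannot be told apart in it.

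The mammalian clock is a feedback loop of transcription. The activators CLOCK and BMAL1 (gene Arntl) bind E-box elements and drive the Per and Cry genes, whose proteins then block their own activators. The nuclear receptors REV-ERB alpha (Nr1d1) and REV-ERB beta (Nr1d2) close another loop by repressing Arntl. The PAR bZIP factors DBP and TEF carry the rhythm to output genes through D-box elements, where NFIL3 competes with them. In rodent intestine, as in liver, transcripts of Nr1d1, Dbp and Per genes rise and fall over the day, and Arntl and Npas2 peak in the opposite phase. A difference in the hour of sampling between groups would therefore be looked for first in these genes. The comparison tests whether they differ between groups, and it cannot give the hour, which the labels lack.

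No clock gene passed the test for a difference between groups. Nr1d1, Nr1d2, Dbp and Tef differed widely between arrays of the same group in some groups. On the log2 scale, from the lowest to the highest of the 12 arrays, Dbp spanned 1.42 (2.68-fold), Nr1d1 1.32 (2.50-fold), Nr1d2 1.12 (2.17-fold) and Tef 0.90 (1.87-fold). Within POR-null control arrays the spans were 1.31, 1.32, 0.99 and 0.90 in the same order. Within POR-null quercetin arrays they were 0.48, 0.70, 0.55 and 0.20. These genes were high and low in largely the same arrays, and Arntl ran largely the opposite way. Arrays at the low end came from 3 of the 4 groups.

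**Figure D1:**
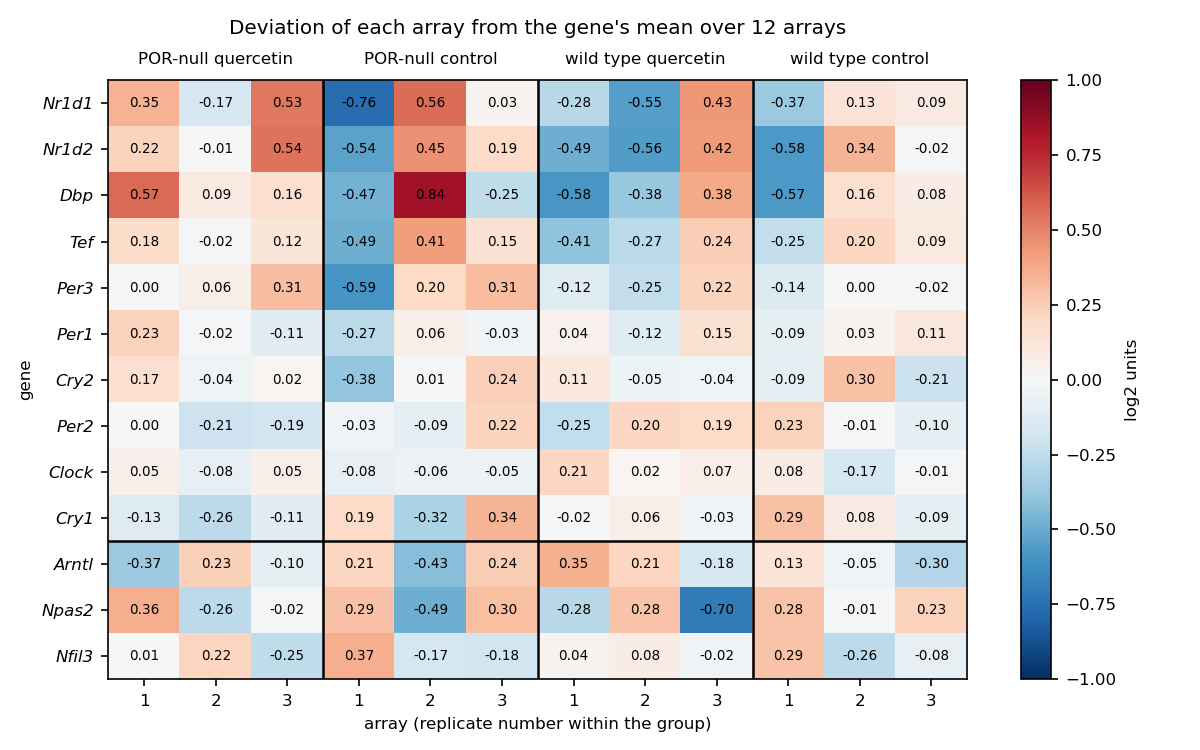
Deviation of each array from the gene's own mean over 12 arrays, in log2 units (colour and printed value), with clock genes in rows and arrays in columns by group. The first 4 rows are low together in POR-null control array 1, wild type quercetin arrays 1 and 2 and wild type control array 1, and high together in POR-null control array 2, where Arntl stands at -0.43 and Npas2 at -0.49.

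Promoters are shown because the clock acts through short elements in them. They are those of Nr1d1, Nr1d2, Dbp and Tef, which moved together, and of Per3, which followed Nr1d1. That of Cry1, which carries both kinds of E-box, is shown too. Each sequence is the 250 bases before the transcription start in the RefSeq table (GRCm38.p6), read 5′ to 3′ on the gene's strand, with matches in capitals. The windows of Dbp and Per3 end inside the gene spans given below, which reach further upstream than the starts used here. The letters searched on both strands were CACGTG (E-box), CACGTT (E′-box, which reads AACGTG on the other strand) and TTATGTAA (D-box). None of these overlap each other in the windows shown.
Nr1d1, minus strand, chr11:98775378-98775627, AACGTG in capitals: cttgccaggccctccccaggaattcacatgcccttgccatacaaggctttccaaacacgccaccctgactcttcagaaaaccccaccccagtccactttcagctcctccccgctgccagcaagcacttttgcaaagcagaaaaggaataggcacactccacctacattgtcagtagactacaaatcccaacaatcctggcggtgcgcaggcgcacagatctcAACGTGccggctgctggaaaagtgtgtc
Nr1d2, minus strand, chr14:18239107-18239356, no match: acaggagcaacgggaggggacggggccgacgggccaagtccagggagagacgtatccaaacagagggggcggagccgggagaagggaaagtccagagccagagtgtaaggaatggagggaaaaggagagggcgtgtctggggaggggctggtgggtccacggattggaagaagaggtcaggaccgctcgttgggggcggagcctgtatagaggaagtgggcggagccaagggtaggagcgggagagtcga
Dbp, plus strand, chr7:45704997-45705246, no match: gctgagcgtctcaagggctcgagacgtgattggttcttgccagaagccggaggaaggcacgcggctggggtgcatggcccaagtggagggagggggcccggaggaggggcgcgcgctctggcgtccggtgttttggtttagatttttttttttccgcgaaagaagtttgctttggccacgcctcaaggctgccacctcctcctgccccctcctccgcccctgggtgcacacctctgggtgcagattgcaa
Tef, plus strand, chr15:81802423-81802672, CACGTG in capitals: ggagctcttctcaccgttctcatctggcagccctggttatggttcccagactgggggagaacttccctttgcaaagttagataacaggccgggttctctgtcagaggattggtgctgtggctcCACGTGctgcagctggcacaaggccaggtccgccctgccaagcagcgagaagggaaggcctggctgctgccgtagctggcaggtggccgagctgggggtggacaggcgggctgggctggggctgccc
Per3, minus strand, chr4:151044666-151044915, TTATGTAA in capitals: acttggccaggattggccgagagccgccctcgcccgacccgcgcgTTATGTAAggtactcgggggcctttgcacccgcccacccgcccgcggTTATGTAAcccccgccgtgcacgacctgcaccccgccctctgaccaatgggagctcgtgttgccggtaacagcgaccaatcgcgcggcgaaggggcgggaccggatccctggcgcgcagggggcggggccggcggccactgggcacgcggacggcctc
Cry1, minus strand, chr10:85185055-85185304, AACGTG and CACGTG in capitals: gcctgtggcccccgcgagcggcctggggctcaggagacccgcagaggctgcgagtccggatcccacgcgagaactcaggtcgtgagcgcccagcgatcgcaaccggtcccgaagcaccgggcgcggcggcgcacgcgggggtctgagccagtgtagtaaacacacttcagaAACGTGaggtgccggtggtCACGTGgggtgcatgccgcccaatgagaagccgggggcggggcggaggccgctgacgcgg
Of the 10 genes 9 matched the table, with 13 windows in all, and Per2 did not. The E-box was found for Per1, Cry1 and Tef, the E′-box for Cry1, Cry2 and Nr1d1, and the D-box for Per3, at 2 places 205 and 158 bases before the start. The Nr1d1 match lay 28 bases before the start, the Tef match 127, and those of Cry1 79 and 60. A window at a second start of Tef, not printed, held another E-box 138 bases before that start. Among all 32851 promoter windows of this length, 6.02% held the E-box, 3.85% the E′-box and 0.82% the D-box. Counted by gene, as for the clock genes above, the shares were 6.86%, 4.5% and 0.98% of 27025 genes. The windows of Nr1d2, Dbp and Clock held none of these letters. Nr1d2 and Dbp moved with Nr1d1 and Tef, so the genes that moved together do not share 1 of these matches within the windows. Sequence outside the windows was not searched. Over the arrays Per3 had r = 0.82 with Tef, 0.57 with Dbp (0.63 at the other Dbp probe set) and -0.75 with Nfil3.

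Nr1d1, the heme-binding repressor REV-ERB alpha (chr11:98767932-98775377, GRCm38.p6), had log2 signals of 7.76, 7.24 and 7.94 in POR-null quercetin arrays, 6.65, 7.97 and 7.44 in POR-null control arrays, 7.13, 6.86 and 7.84 in wild type quercetin arrays, and 7.04, 7.54 and 7.50 in wild type control arrays. All groups overlapped, and the lowest and the highest of the 12 values both belonged to POR-null mice on control diet. Nr1d2, its paralogue REV-ERB beta (chr14:18204056-18239106), had 7.71, 7.48 and 8.03 in POR-null quercetin arrays, 6.95, 7.94 and 7.68 in POR-null control arrays, 7.00, 6.93 and 7.91 in wild type quercetin arrays, and 6.91, 7.83 and 7.47 in wild type control arrays. The values fell in a lower set of 4 arrays between 6.91 and 7.00 and an upper set of 8 between 7.47 and 8.03. Each of the groups other than POR-null quercetin had arrays in both sets. The dimmer Nr1d2 probe set, with a mean of 5.15, was lowest in POR-null control array 1 at 4.70 and in wild type quercetin array 2 at 4.74. The other arrays of the lower set, wild type quercetin array 1 and wild type control array 1, had 5.11 and 5.05. Both values lie above that of POR-null quercetin array 2, 4.92, so the split into sets was not seen at this probe set.

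Dbp, the PAR bZIP activator named for its binding to the albumin gene's D site (chr7:45705100-45710203), had 6.63, 6.15 and 6.22 in POR-null quercetin arrays, 5.59, 6.90 and 5.81 in POR-null control arrays, 5.48, 5.68 and 6.44 in wild type quercetin arrays, and 5.49, 6.22 and 6.14 in wild type control arrays. It was high in POR-null control array 2 and low in wild type quercetin array 1 and wild type control array 1, with overlap of all groups. The other Dbp probe set ran from 4.77 in wild type quercetin array 2 to 6.30 in POR-null control array 2. Its correlation with the first was 0.89 over the 12 arrays, the highest of all 22625 other probe sets. Tef, the thyrotroph embryonic factor of the same family (chr15:81802673-81826863), had 8.67, 8.47 and 8.61 in POR-null quercetin arrays, 8.00, 8.90 and 8.64 in POR-null control arrays, 8.08, 8.22 and 8.73 in wild type quercetin arrays, and 8.24, 8.69 and 8.58 in wild type control arrays. POR-null control arrays again held both ends of the range. Of the other Tef probe sets, the one with a mean of 6.26 was also lowest in POR-null control array 1, at 5.86, and the one with a mean of 3.87 lay below the lower quartile of probe set means (4.73).

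Per1 and Per2 spread less than these genes, and Per3 spanned 0.90, as Tef did. Per3 (chr4:150997018-151044707), the least required of the Period genes for rhythm in mice, had 5.78, 5.84 and 6.09 in POR-null quercetin arrays, 5.19, 5.98 and 6.09 in POR-null control arrays, 5.66, 5.53 and 6.00 in wild type quercetin arrays, and 5.64, 5.78 and 5.76 in wild type control arrays. POR-null control array 1 stood below all others. Per1, the Period gene that also answers quickly to glucocorticoid and cAMP, lay between 7.09 in POR-null control array 1 and 7.59 in POR-null quercetin array 1, a span of 0.50. Per2, the Period gene most needed for a stable rhythm, lay between 5.72 in wild type quercetin array 1 and 6.20 in wild type control array 1. The dimmer Per2 probe set, with a mean of 4.52, did not follow the first: it was lowest, at 4.17, in both POR-null control array 1 and wild type control array 1, and the first was highest in the second of these. The other Per3 probe sets had means of 4.90 and 4.41.

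The Cryptochrome repressors spanned 0.66 (Cry1) and 0.68 (Cry2), more than Per1 and Per2, and Clock varied least of the 10 genes. Cry1, the stronger repressor of the pair, was dim, with a mean of 4.42 that lies below the lower quartile of probe set means. It ran from 4.10 in POR-null control array 2 to 4.76 in POR-null control array 3. Cry2 lay between 6.11 in POR-null control array 1 and 6.79 in wild type control array 2. Clock, the histone acetyltransferase partner of BMAL1, spanned 0.38, between 6.87 and 7.25, and its dimmer probe set lay between 5.80 and 6.47. In rodent tissues Clock transcript is known to change little over the day. The within-group SD of Clock was 0.09, lower than in all but 13.6% of tested probe sets. For Dbp, Nr1d1, Nr1d2 and Tef the within-group SD was 0.49, 0.48, 0.46 and 0.32, against a median of 0.14 over all probe sets. It was larger than in 98.4%, 98.2%, 98.0% and 95.2% of probe sets in that order. For Per3 it was 0.29 (93.7% of probe sets were lower), for Cry2 0.22 (86.0%), for Cry1 0.20 (82.9%), for Per2 0.18 (76.9%) and for Per1 0.15 (59.2%).

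**Figure D2:**
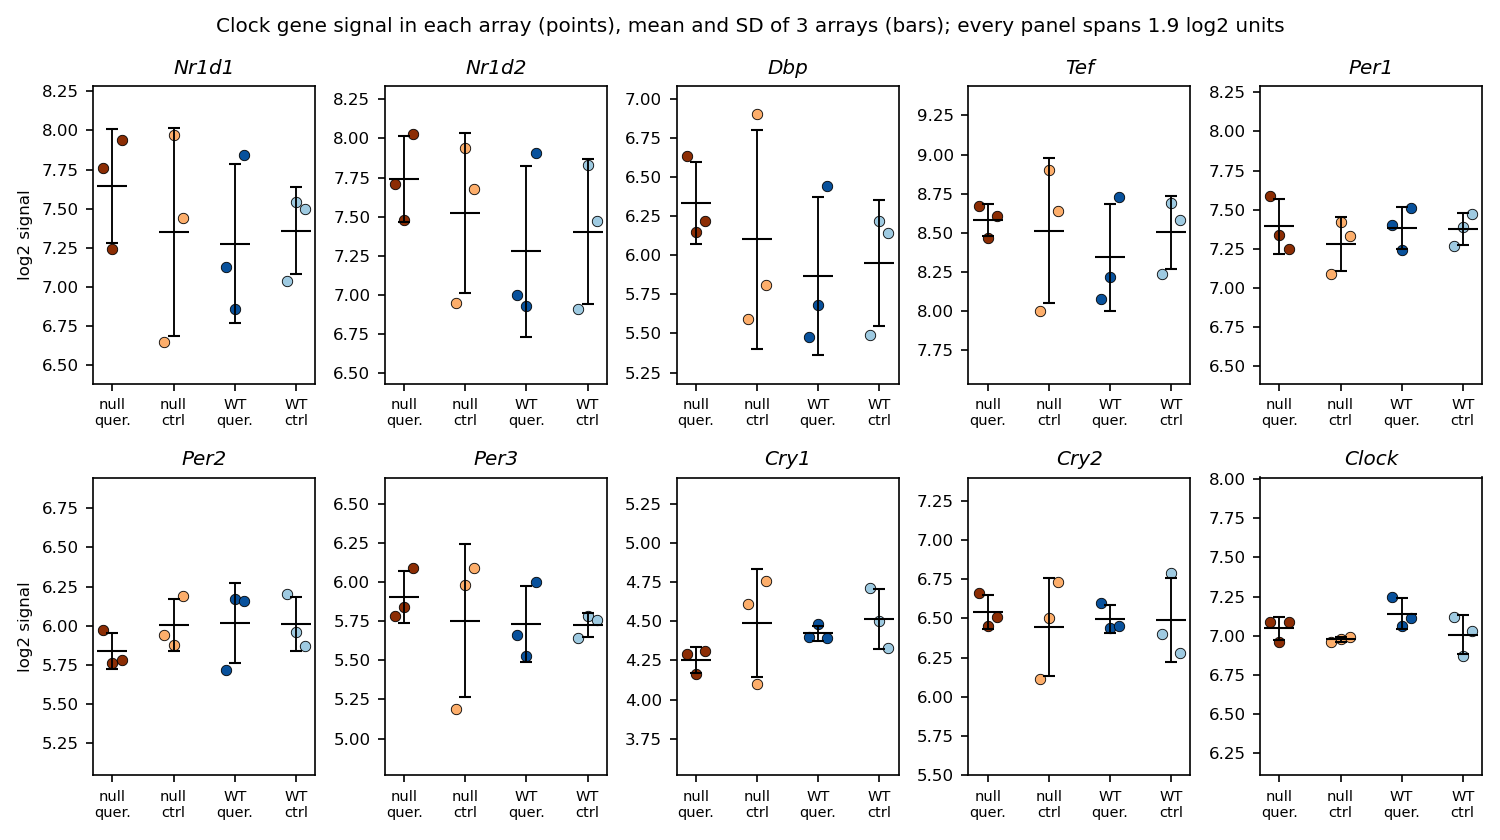
Log2 signal of the 10 clock genes in each of the 12 arrays (points), by group (null, POR-null; WT, wild type; quer., quercetin diet; ctrl, control diet), with the mean and SD of 3 arrays as bars; all panels span the same log2 distance. Over all 12 arrays Nr1d1, Nr1d2, Dbp and Tef spread over 0.90 to 1.42, with overlapping groups, whereas Clock stays within 0.38.

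Most of the variation of these genes lay within groups. The share of the sum of squares found within groups was 88.4% for Nr1d1, 83.2% for Nr1d2, 83.8% for Dbp, 89.6% for Tef and 91.3% for Per3. It was 96.6% for Cry2, 87.7% for Per1 and 80% for Per2, so a high share was not particular to the former genes. Over all probe sets the median share was 76.9%, and arrays with no group structure would give 72.7% from the degrees of freedom alone. Clock, at 58.2%, and Cry1, at 72.7%, did not exceed that share.

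In POR-null mice, 0 of the 10 clock genes passed an adjusted p under 0.05 for quercetin against control diet, and 0 passed at an unadjusted p under 0.05 (limma, 3 arrays per group). The backgrounds over all probe sets were 0% and 2.82%. The smallest unadjusted p was 0.127, for Cry1, which averaged 4.25 ± 0.08 on quercetin and 4.49 ± 0.35 on control diet (SD, n = 3 arrays each; difference -0.24, SE 0.14, limma adjusted p = 1). Nr1d1 averaged 7.65 ± 0.36 on quercetin and 7.35 ± 0.66 on control diet, a difference of 0.29 with a 95% interval from -0.39 to 0.97 (limma adjusted p = 1). The differences were 0.23 for Dbp (interval -0.47 to 0.94), 0.22 for Nr1d2 (-0.44 to 0.88), 0.07 for Tef (-0.39 to 0.53), 0.15 for Per3 (-0.28 to 0.58), 0.11 for Per1 (-0.15 to 0.37), -0.17 for Per2 (-0.47 to 0.14), 0.09 for Cry2 (-0.25 to 0.44) and 0.07 for Clock (-0.13 to 0.27). The clock genes had a median difference of 0.10, against 0.01 over all probe sets, with 8 higher and 2 lower. The sign of the larger values rested on POR-null control array 1: without it Nr1d1 differed by -0.06 and Dbp by -0.02. With arrays weighted by how closely they kept to their group means in the fit, Dbp differed by -0.22 and Tef by -0.14. No clock gene was without overlap between the groups at its brightest probe set (background 6.75%). The second Per3 probe set was: its quercetin arrays, the highest at 5.12, all lay above the control arrays at 4.67, 4.94 and 4.92 (difference 0.20, SE 0.10, unadjusted p = 0.0796, limma adjusted p = 1).

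In wild type mice, 0 of 10 clock genes passed for quercetin against control diet at an adjusted or an unadjusted p under 0.05 (limma; backgrounds 0% and 5.15%). Clock had the smallest unadjusted p, 0.177, with a difference of 0.13 (SE 0.09, limma adjusted p = 0.957). Nr1d1 averaged 7.28 ± 0.51 on quercetin and 7.36 ± 0.28 on control diet (SD, n = 3 arrays each), a difference of -0.08 with an interval from -0.76 to 0.60. Tef differed by -0.16 (-0.62 to 0.30), Nr1d2 by -0.12 (-0.78 to 0.54), Dbp by -0.08 (-0.79 to 0.62) and Cry1 by -0.09 (-0.40 to 0.22). Per1, Per2 and Cry2 differed by 0.01 each and Per3 by 0.00, with intervals no wider than -0.43 to 0.44. The median was -0.04, against 0.00 over all probe sets, and 5 genes were higher and 5 lower. No clock gene was without overlap (background 9.31%).

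Between genotypes on the quercetin diet, 0 of 10 clock genes passed at an adjusted or an unadjusted p under 0.05 (limma; backgrounds 0% and 2.39%). At the brightest probe sets the differences were the largest of the 4 comparisons for Dbp, Nr1d1, Nr1d2 and Tef. Other probe sets differed by 0.58 for Dbp, 0.11 for Nr1d2, 0.05 and 0.01 for Tef, 0.14 for Per2 and -0.18 for Clock. Dbp averaged 6.33 ± 0.26 in POR-null and 5.87 ± 0.51 in wild type mice (SD, n = 3 arrays each), a difference of 0.47 with an interval from -0.24 to 1.17 (unadjusted p = 0.176, limma adjusted p = 0.998). Nr1d2 averaged 7.74 ± 0.28 in POR-null and 7.28 ± 0.55 in wild type mice, a difference of 0.46 (-0.20 to 1.12, unadjusted p = 0.156, limma adjusted p = 0.998). Nr1d1 differed by 0.37 (-0.31 to 1.05), Tef by 0.24 (-0.22 to 0.70), Per3 by 0.17 (-0.26 to 0.61), Per2 by -0.18 (-0.48 to 0.12), Cry1 by -0.17 (-0.48 to 0.14), Clock by -0.09 (-0.30 to 0.11), Cry2 by 0.04 (-0.30 to 0.39) and Per1 by 0.01 (-0.25 to 0.27). Leaving out 1 array gave 0.27 to 0.75 for Dbp, 0.16 to 0.65 for Nr1d1, 0.29 to 0.78 for Nr1d2 and 0.11 to 0.43 for Tef, each highest without wild type quercetin array 3. The lowest came without wild type quercetin array 1 for Dbp and Tef and without array 2 of that group for Nr1d1 and Nr1d2. In Dbp, Nr1d2, Nr1d1 and Tef, 2 of the 3 wild type arrays lay below every POR-null array. Cry1 was the 1 clock gene without overlap at its brightest probe set (background 6.82%), with 4.29, 4.16 and 4.31 in POR-null arrays and 4.40, 4.48 and 4.39 in wild type arrays, all at dim signal. The Per3 probe set of mean 4.90 was also without overlap and had an unadjusted p = 0.0311 (difference 0.25, SE 0.10, limma adjusted p = 0.998). The brighter Per3 probe set had the same sign with an unadjusted p = 0.402, and the dimmest differed by -0.02.

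On the control diet, 0 of 10 clock genes passed between POR-null and wild type mice at an adjusted or an unadjusted p under 0.05 (limma; backgrounds 0% and 6.79%), and none was without overlap (background 9.67%). The smallest unadjusted p was 0.437, for Per1 (difference -0.10, SE 0.12). Nr1d1 averaged 7.35 ± 0.66 in POR-null and 7.36 ± 0.28 in wild type mice (SD, n = 3 arrays each), a difference of -0.01 with an interval from -0.69 to 0.67. Dbp differed by 0.15 (-0.56 to 0.86), Nr1d2 by 0.12 (-0.54 to 0.78), Tef by 0.01 (-0.45 to 0.47), Per3 by 0.03 (-0.41 to 0.46), Cry2 by -0.04 (-0.39 to 0.30), Clock by -0.03 (-0.23 to 0.17), Cry1 by -0.02 (-0.34 to 0.29) and Per2 by -0.01 (-0.31 to 0.30). Without POR-null control array 1 the Nr1d1 difference was 0.34, and without POR-null control array 2 it was -0.32. Other probe sets differed by -0.28 for Nr1d2, -0.21 and -0.05 for Tef, 0.02 for Dbp, 0.15 for Per2 and 0.19 for Clock.

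**Figure D3:**
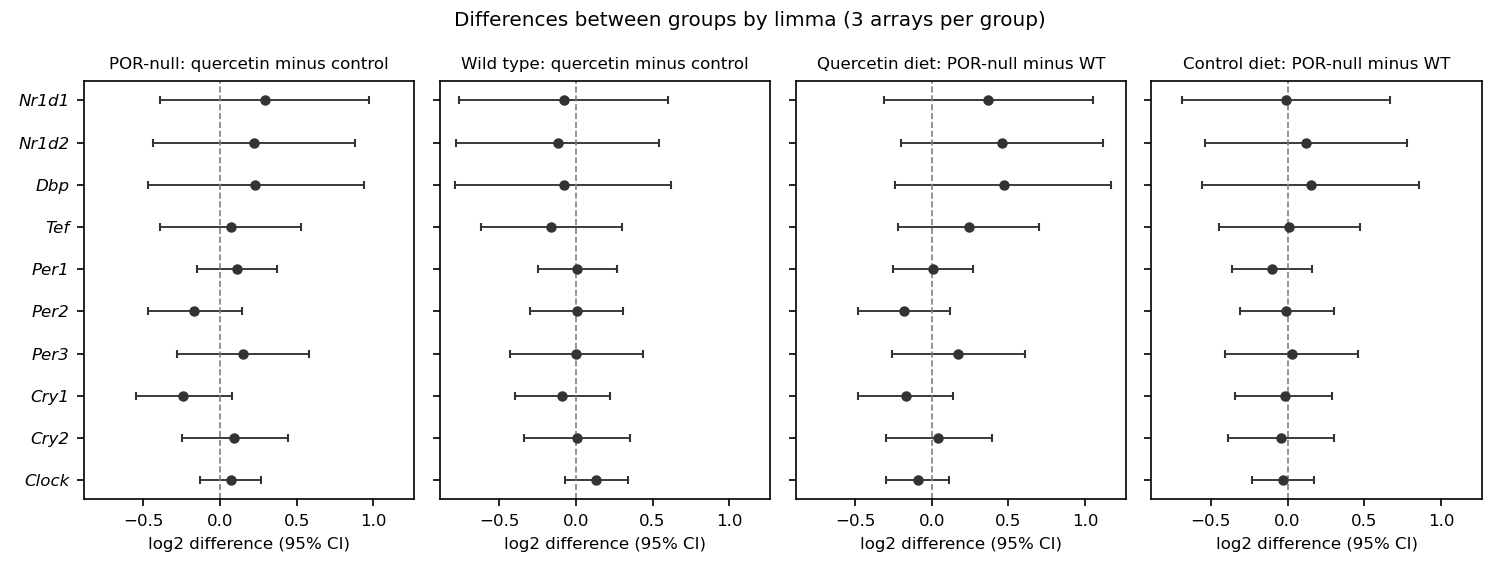
Log2 difference between group means for the 10 clock genes in 4 comparisons, with the 95% interval of the limma fit (3 arrays per group). Every interval includes 0, and the intervals are widest for Nr1d1, Nr1d2 and Dbp.

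The interaction, which is the quercetin difference in POR-null minus that in wild type mice, was 0.38 for Nr1d1 (SE 0.44), 0.34 for Nr1d2 (SE 0.43), 0.32 for Dbp (SE 0.46) and 0.23 for Tef (SE 0.30). Without POR-null control array 1 it was 0.03 for Nr1d1, 0.05 for Nr1d2, 0.06 for Dbp and -0.03 for Tef. The highest values on leaving out 1 array were 0.69 for Nr1d1 and 0.72 for Dbp, without POR-null control array 2, and 0.66 for Nr1d2 and 0.42 for Tef, without wild type quercetin array 3. In the interaction, in the genotype difference averaged over diets and in the quercetin difference averaged over genotypes, 0 of 10 clock genes passed an adjusted p under 0.05 and 0 an unadjusted p under 0.05. The backgrounds were 0% for the adjusted p, and 4.74%, 4.18% and 3.25% for the unadjusted p. A moderated F test over all 4 groups gave 0 of 10 as well, with backgrounds of 0% and 3.75%, and its smallest unadjusted p among the clock genes was 0.312, for Cry1 (limma adjusted p = 1). The second Per3 probe set had an unadjusted p = 0.034 in the interaction (0.35, SE 0.15, limma adjusted p = 0.998). In the 4 comparisons the intervals reached as far as 1.17 for Dbp, 1.12 for Nr1d2 and 1.05 for Nr1d1, whereas for Clock and Per1 they reached no further than 0.37 in either direction.

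The coordinated movement across arrays was close between the second-loop receptors and the PAR bZIP factors. Over the 12 arrays Nr1d1 had r = 0.93 with Nr1d2 (rho = 0.94), 0.91 with Tef (rho = 0.89), 0.85 with Dbp (rho = 0.88) and 0.85 with Per3 (rho = 0.79). Without the 2 arrays farthest from the median of Nr1d1, these r were 0.92, 0.85, 0.86 and 0.69. With the group means taken out they were 0.94, 0.93, 0.84 and 0.84. Among the 22625 other probe sets, Nr1d2 ranked 1, Tef 2, Dbp 8 and Per3 9 by r with Nr1d1. The 8 arrays in the upper set of Nr1d2 gave r with Nr1d1 of 0.85 for Nr1d2, 0.73 for Tef, 0.70 for Dbp and 0.41 for Per3. This split was chosen after the values were seen, and the Per3 value without the 4 low arrays is lower than over all 12. These correlations describe arrays that share groups and normalization. The other clock genes followed Nr1d1 less closely at their brightest probe sets. Their r was 0.67 for Per1, 0.46 for Cry2, -0.02 for Clock, -0.17 for Per2 and -0.54 for Cry1. Without the same 2 arrays those of Per1 and Cry2 were 0.35 and 0.07. The dimmer Per2 probe set, with a mean of 4.52, had r = 0.70 with Nr1d1, so the Per2 probe sets disagreed. Over all 45 pairs of the 10 genes the median r was 0.20, and 28 pairs were above 0.

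The opposite-phase genes ran against them in part. Arntl, which encodes BMAL1, had 6.13, 6.73 and 6.40 in POR-null quercetin arrays, 6.71, 6.07 and 6.74 in POR-null control arrays, 6.85, 6.71 and 6.32 in wild type quercetin arrays, and 6.63, 6.45 and 6.20 in wild type control arrays. It was lowest in POR-null control array 2, where Dbp and Nr1d1 were highest, and highest in wild type quercetin array 1, where Dbp was lowest. Its r was -0.87 with Dbp (rho = -0.78), 3 from the bottom of 22625 other probe sets, and -0.77 with Nr1d1 (rho = -0.72), 39 from the bottom. Among the 8 arrays of the upper Nr1d2 set, r of Arntl with Nr1d1 was -0.71. Nfil3, the D-box repressor, had r = -0.77 with Nr1d1 and -0.78 with Nr1d2, at a dim mean of 4.94. Among the 8 arrays of the upper Nr1d2 set its r with Nr1d1 was -0.47. Npas2, a paralogue of Clock, was lowest in wild type quercetin array 3 at 5.41 and in POR-null control array 2 at 5.62, but had its highest value, 6.47, in POR-null quercetin array 1, where Arntl was also low. Its r with Nr1d1 was -0.47, and -0.31 without the 2 farthest arrays.

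**Figure D4:**
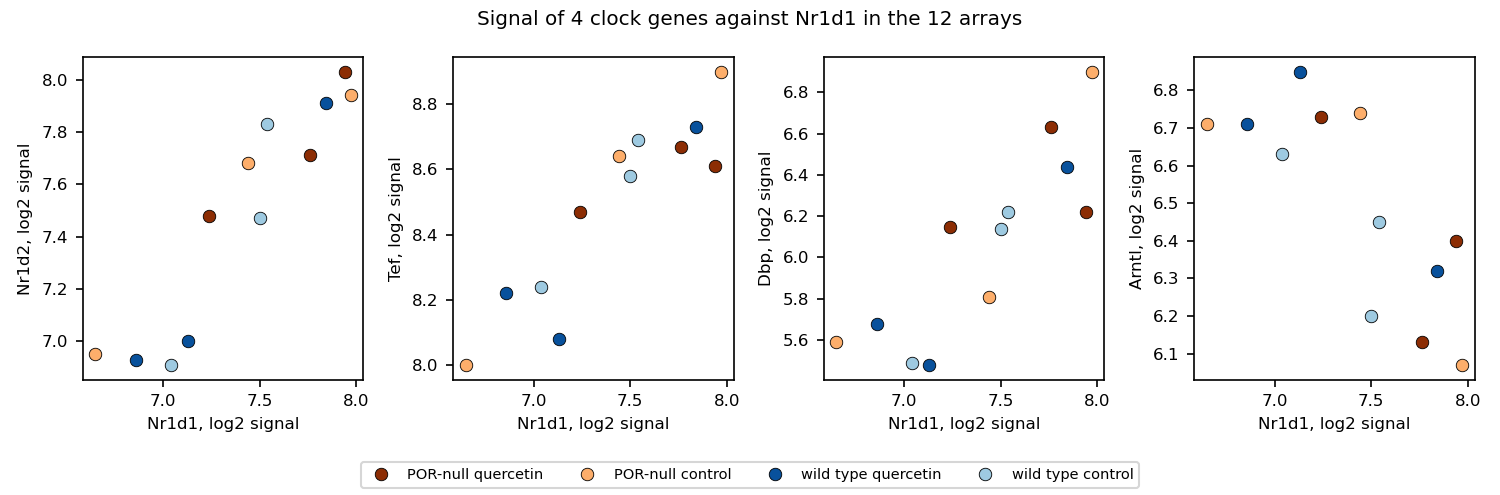
Log2 signal of Nr1d2, Tef, Dbp and Arntl (vertical axes) against Nr1d1 (horizontal axis) in the 12 arrays, coloured by group. Nr1d2, Tef and Dbp increase with Nr1d1 (r = 0.93, 0.91 and 0.85), Arntl decreases (r = -0.77), and the groups overlap. No POR-null quercetin array lies in the lower set of Nr1d2, a set not seen at its dimmer probe set.

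Averaged over Nr1d1, Nr1d2, Dbp and Tef, the deviation from the mean of all arrays was 0.33, -0.03 and 0.34 in POR-null quercetin arrays, -0.56, 0.57 and 0.03 in POR-null control arrays, -0.44, -0.44 and 0.37 in wild type quercetin arrays, and -0.44, 0.21 and 0.06 in wild type control arrays. The mean of Arntl and Npas2 was 0.00, -0.01 and -0.06 in POR-null quercetin arrays, 0.25, -0.46 and 0.27 in POR-null control arrays, 0.04, 0.25 and -0.44 in wild type quercetin arrays, and 0.21, -0.03 and -0.03 in wild type control arrays. By the first measure 3 of the 4 lowest arrays carried replicate number 1, and all 4 arrays of number 3 were above 0. The POR-null control group held both the lowest and the highest of the 12 arrays by the first measure. Whether pools of 1 group were collected at different hours was not tested, since the labels hold no time.

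Among 34 other listed genes of the clock, its output and the glucocorticoid response, 28 were on the array and 0 passed an adjusted p under 0.05 in any comparison. At an unadjusted p under 0.05 there were 0 in POR-null mice on quercetin against control diet (background 2.82%), 2 in wild type mice on quercetin against control diet (5.15%), 0 between genotypes on quercetin (2.39%) and 5 between genotypes on control diet (6.79%). The interaction had 2 (4.74%), Bhlhe40 and the mitotic inhibitor kinase gene Wee1 (0.35). The genotype difference averaged over diets had 4 (4.18%), all lower in POR-null mice. Of these, 3 were among 7 measured genes whose products modify PER and CRY. The quercetin difference averaged over genotypes had 2 (3.25%). Bhlhe40, an E-box repressor also called Dec1, had the smallest p in wild type mice. Its signals were 8.36, 8.36 and 8.48 on quercetin and 8.83, 8.99 and 8.91 on control diet, without overlap, as in 9.31% of all probe sets (difference -0.51, SE 0.12, unadjusted p = 0.00103, limma adjusted p = 0.91). In POR-null mice it averaged 8.57 ± 0.18 on quercetin and 8.62 ± 0.22 on control diet (SD, n = 3 arrays each), and the interaction was 0.46 (SE 0.17, unadjusted p = 0.0188, limma adjusted p = 0.998). Sgk1, a kinase gene induced by glucocorticoid and aldosterone, had 9.79, 9.56 and 9.17 in POR-null and 9.91, 10.38 and 10.32 in wild type control arrays (difference -0.70, SE 0.23, limma adjusted p = 0.71). In the same comparison Gsk3b, a kinase of clock proteins, differed by -0.26 (SE 0.11), Tsc22d3, a glucocorticoid-induced leucine zipper gene, by 0.40 (SE 0.17) Klf9, a glucocorticoid-induced zinc finger gene, by 0.29 (SE 0.13) and Bhlhe40 by -0.29 (SE 0.12), each with a limma adjusted p = 0.734. Marveld1 differed by 0.28 (SE 0.11) in wild type mice on quercetin (limma adjusted p = 0.952). The brightest probe sets of Rora and Rorb, which oppose REV-ERB at its sites, spanned 0.29 and 0.46 over the 12 arrays.

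The genes most like the 3 clock genes of largest SD over the arrays were mostly other clock genes. For Dbp they were Tef (r = 0.88 over 12 arrays), Mycbp (0.86) and Nr1d1 (0.85). For Nr1d1 they were Nr1d2 (0.93), Tef (0.91) and Lnx1 (0.89), and for Nr1d2 they were Nr1d1 (0.93), Tef (0.92) and Lnx1 (0.91). Genes on no clock list were closest to Per1 (Adk, 0.95), Per2 (Tlr7, 0.94) and Per3 (Tlr6, 0.92). The same held for Cry1 (Ube2g2, 0.86), Cry2 (Retreg2, 0.87) and Clock (Hdac6, 0.87).

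Markers of other cells also differed between the arrays. Epithelial genes (8 of 10 listed were on the array) had list means between 11.29 and 11.57, high in every array and no value in the table is below 2.70, so a marker cannot be read as 0 here. Smooth muscle genes (8 of 8) ran from 7.30 to 7.81 in POR-null quercetin arrays, 6.01 to 7.77 in POR-null control arrays, 6.17 to 9.81 in wild type quercetin arrays and 5.65 to 5.98 in wild type control arrays. Their r was 0.26 with Nr1d1 and 0.44 with Dbp. Pancreatic acinar genes (8 of 10) reached 10.22 in POR-null quercetin array 2 and 9.19 in wild type control array 1, against 6.10 to 7.72 in the other arrays, and had r = -0.26 with Nr1d1. B cell genes (4 of 5) were highest in POR-null control array 1 at 8.10 and wild type quercetin array 2 at 8.01, which are both arrays of low Nr1d1, and had r = -0.54 with Nr1d1. The other low arrays had B cell means of 6.36 and 6.92, within the range of the remaining ones. The part of these cell types in the clock values was not tested. Array medians ran from 5.90 to 5.98, and correlations between arrays lay between 0.985 and 0.995 within groups and between 0.981 and 0.993 across groups.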

How the data were processed

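Affymetrix 430A arrays measured pooled RNA of the colon epithelium in 12 samples. The authors deposited a table of log2 signal per probe set, with 22690 rows and values from 2.70 to 14.09. Both MAS5 and RMA appear in the submitters' processing notes, and the step each one served is not stated there. The log base was taken from the values, since the top exceeds 11.1, the natural logarithm of the largest 16-bit count. The table was used as deposited, and the number of arrays limits the precision.

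The 64 control probe sets were left out, which leaves 22626 tested with no filter on signal. Of these 20380 had 1 gene symbol in the array annotation, 691 several and 1555 none. Groups came from the sample titles. Group means were compared in 1 fit of all 12 arrays with limma 3.58.1 in R 4.3.3 (lmFit, eBayes with trend, 8 residual and 12.91 total degrees of freedom), two-sided, with Benjamini-Hochberg adjustment over all tested probe sets and a threshold of 0.05. The fit was tested on simulated data. SE and 95% intervals are those of the moderated fit, and a replicate is a pool. Correlations over arrays are descriptions. For likeness, only probe sets with 1 symbol and a mean above the lower quartile were eligible. For the 3 clock genes of largest SD 3 are named, and for the others the closest. From other lists up to 5 genes of the smallest unadjusted p are named. Genes, lists and tests were chosen with earlier results of these data known. Some listed genes are not analysed here. Alternatives were the prior without trend, quantile or median scaling, a filter on dim probe sets, array weights, fits of only the compared groups, a replicate block, the mean of a gene's probe sets, and leaving out each array. Promoter sequences are those of RefSeq, in GRCm38.p6.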

Additional observations from a re-analysis of the deposited data

How the results depend on the processing

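The count of clock genes past the threshold was 0 in every comparison under every alternative, with a smallest adjusted p of 0.351 (limma). Over all probe sets the counts moved from 0 as follows. Array weights gave 2 for quercetin in wild type and 399 for genotype on control diet, the replicate block 1 for genotype on quercetin diet, and a fit of only the compared groups 1 for the same. On control diet the weights were 0.61, 2.72 and 0.45 in POR-null and 0.53, 1.14 and 2.49 in wild type arrays. The weights favoured 1 array in each group, and how far the 399 rest on these arrays was not tested. Leaving out 1 array gave 0 to 3 for quercetin in wild type (3 without wild type quercetin array 1), 0 to 1 for quercetin in POR-null, 0 to 41 for genotype on control diet (41 without wild type control array 1), 0 to 1 for genotype on quercetin diet and for the interaction, 0 to 2 for the genotype average and for the F test, and 0 to 1 for the quercetin average. Same-numbered arrays of different groups had deviations correlated at -0.19 to 0.26 over all probe sets, and differently numbered ones at -0.27 to 0.21, so the numbers were not taken to pair the arrays. Of 50 clock gene differences, all short of the threshold, 23 of 385 values turned sign in settings other than leaving out arrays. Quantile scaling gave -0.01 for Per2 and Cry2 on quercetin in wild type, and 0.01 for Per2 and -0.01 for Tef between genotypes on control diet. Median centring gave -0.01 for Per1, Per2 and Cry2 on quercetin in wild type, and 0.01 for Per2 and Nr1d1 between genotypes on control diet. Array weights gave -0.06 for Per1 and 0.01 for Cry1 on quercetin in wild type, -0.22 for Dbp, -0.04 for Nr1d1, -0.01 for Nr1d2 and -0.14 for Tef on quercetin in POR-null, and 0.03 for Cry2 and 0.24 for Nr1d1 between genotypes on control diet. The mean of all probe sets gave -0.03 for Clock on quercetin in POR-null, and 0.07 for Per2, -0.01 for Per3, 0.08 for Clock, -0.08 for Nr1d2 and -0.08 for Tef between genotypes on control diet. Leaving out 1 array turned 54 of 600 values, with ranges for quercetin in POR-null Per3 -0.13 to 0.32, Cry2 -0.07 to 0.24, Dbp -0.02 to 0.63, Nr1d1 -0.06 to 0.60, Nr1d2 -0.07 to 0.43, Tef -0.19 to 0.26; for quercetin in wild type Per1 -0.06 to 0.08, Per2 -0.07 to 0.15, Cry1 -0.18 to 0.01, Cry2 -0.10 to 0.16, Dbp -0.37 to 0.11, Nr1d1 -0.37 to 0.12, Nr1d2 -0.44 to 0.09; for genotype on quercetin diet Per1 -0.09 to 0.08, Cry2 -0.02 to 0.10; for genotype on control diet Per2 -0.10 to 0.09, Per3 -0.14 to 0.31, Cry1 -0.16 to 0.17, Cry2 -0.19 to 0.12, Clock -0.10 to 0.03, Dbp -0.25 to 0.40, Nr1d1 -0.32 to 0.34, Nr1d2 -0.13 to 0.41, Tef -0.18 to 0.27; for the interaction Per3 -0.14 to 0.31, Cry2 -0.08 to 0.23, Clock -0.12 to 0.01, Tef -0.03 to 0.42. Apart from what these constructions do, the cause was not tested. Cry1 lay below the lower quartile of signal and has no value under the filter on dim probe sets.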

Other observations

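Lnx1, an E3 ubiquitin ligase gene that is on none of the clock lists, followed Tef more closely than any other eligible probe set did, with r = 0.99 over the 12 arrays and 0.99 with group means taken out. Its signals were 8.18, 8.08 and 8.19 in POR-null quercetin arrays, 7.79, 8.34 and 8.20 in POR-null control arrays, 7.88, 7.96 and 8.22 in wild type quercetin arrays, and 7.97, 8.29 and 8.15 in wild type control arrays. A dimmer Lnx1 probe set, with a mean of 5.18, had r = 0.84 with Tef. Mycbp, named beside Dbp, had 5 probe sets, of which 1 had r = 0.86 with Dbp and the others between -0.50 and 0.49.

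Fkbp5, a glucocorticoid-induced chaperone gene, spanned 1.03 over the arrays, with 10.04, 9.95 and 9.79 in POR-null quercetin arrays, 9.60, 10.20 and 9.43 in POR-null control arrays, 9.85, 9.90 and 9.59 in wild type quercetin arrays, and 9.45, 10.37 and 10.46 in wild type control arrays. Its r with Nr1d1 was 0.32. Usp2, a deubiquitinase gene with rhythmic transcripts in mouse liver, was highest in wild type control array 3 at 8.39 and lowest in POR-null control array 1 at 7.62, with r = 0.43. Csnk1e, a kinase gene of PER proteins, had probe sets that disagreed: between genotypes on quercetin the brighter differed by -0.23 (SE 0.13) and the dimmer by 0.39 (SE 0.13), each with a limma adjusted p = 0.998.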
